A study of Mus musculus with 58 samples.

Results

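Heat shock proteins and chaperonins fold newly made and damaged proteins, and 40 mouse genes that encode them or regulate them were followed through T cell activation. The genes were taken by symbol from a list, and all 40 were found among the 24028 genes of the count table and passed the filter on low counts, which kept 13709 genes. They were set apart as 10 stress-induced cytosolic genes, 7 other cytosolic genes, 11 genes of the endoplasmic reticulum (ER), 5 mitochondrial genes and 7 subunits of the cytosolic chaperonin TRiC. Hsf1 is counted in the stress-induced class, although it encodes the regulator of such genes and not a chaperone. RNA-seq had been done on 58 libraries of mouse CD4+ T cells in 15 groups, which are 3 genotypes in 5 states. KO cells (T1792 delta/delta) came from CD4cre.miR-17∼92lox/lox mice, in which Cre under Cd4 control deletes the miR-17∼92 microRNA cluster in T cells. TG cells (T1792tg/tg) came from CD4cre.Rosa26loxSTOPloxCAG-miR-17∼92Tg mice, in which the same Cre switches on an added copy of the cluster. WT cells are labelled wildtype with no Cre, so the cluster and Cre cannot be told apart in a comparison with WT. The 5 states were naive cells straight from the isolation kit, and cells cultured for 24 or 48 h with IL-2 (50 U/ml) on coated plates. The coat held 0.2 µg/ml of anti-CD28 and either 0.25 µg/ml of anti-CD3, the very weak stimulus, or 0.5 µg/ml, the weak one. Per the labels' protocols the cells came from lymph nodes and spleens pooled from 10 mice, male and female. Each group had 4 libraries, except KO naive and WT naive with 3 (replicates 1, 2 and 4). The labels do not say whether libraries of a group came from separate pools of mice, so p-values measure the spread between these libraries, which may be technical.

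HSP70 proteins (Hspa genes) bind unfolded stretches of protein, J proteins (Dnaj genes) deliver clients to them and drive their ATP use, and HSP90 proteins finish the folding of kinases and receptors. TRiC is a barrel of stacked rings that encloses actin, tubulin and other proteins while they fold, and Hspd1 with its lid Hspe1 does the same inside mitochondria. In a stressed cell the transcription factor HSF1 switches on the inducible members, whereas unfolded protein in the ER switches on the ER members through ATF6, XBP1 and PERK. T cells that leave the resting state grow and multiply their protein output, for which folding capacity is needed.

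Promoters of several ER genes carry an element known from the unfolded protein response, and the sites are shown because the ER genes are described as a class. RefSeq promoter windows (build GRCm38.p6, from 250 bases before to 50 bases after each annotated start) were at hand for 33 of the 40 genes, as 42 windows. The ER stress element, searched on both strands as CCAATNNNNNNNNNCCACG, was present in 0.119% of all 32851 windows. It was found in 6 of the 10 ER genes with a window and in none of the members of the other classes that had one. The 7 matches lie at chr2:34772015-34772053 (Hspa5, plus strand), chr10:86705628-86705666 and chr10:86705523-86705561 (Hsp90b1, minus strand), chr14:118937817-118937855 (Dnajc3, plus), chr8:84847065-84847103 (Calr, minus), chr11:50325790-50325828 (Canx, minus) and chr12:17266481-17266519 (Pdia6, plus). Each is printed below in the direction of its gene with 10 bases either side, and the capitals mark the 5 fixed bases at each end of the element, which read in reverse in Calr and in the second site of Hsp90b1.
Hspa5: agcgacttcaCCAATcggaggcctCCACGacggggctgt
Hsp90b1, first site: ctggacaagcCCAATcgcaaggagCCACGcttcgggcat
Hsp90b1, second site: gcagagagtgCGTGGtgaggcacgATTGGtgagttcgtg
Dnajc3: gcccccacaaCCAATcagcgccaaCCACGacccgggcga
Calr: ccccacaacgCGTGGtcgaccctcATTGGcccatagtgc
Canx: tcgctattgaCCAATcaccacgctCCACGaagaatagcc
Pdia6: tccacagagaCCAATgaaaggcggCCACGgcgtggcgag
A match describes the letters of the window and is not a test of binding.

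The heat shock element, the HSF1 motif searched on both strands as GAANNTTCNNGAA, was present in 0.603% of all windows and in windows of 4 members, Hsph1, Dnajb6, Hspd1 and Hspe1. Its shorter form GAANNTTC, which lies within the longer one, was present in 7.86% of all windows and in 6 of the 8 stress-induced genes with a window, Hspa1a, Hspa1b, Hspb1, Hsph1, Dnaja1 and Bag3. Hspd1 and Hspe1 are transcribed away from each other from 1 shared promoter region. The plus-strand window of Hspe1, chr1:55087898-55088197, is shown because both genes read from it, with the stretch covered by 2 overlapping matches in capitals.
Hspe1: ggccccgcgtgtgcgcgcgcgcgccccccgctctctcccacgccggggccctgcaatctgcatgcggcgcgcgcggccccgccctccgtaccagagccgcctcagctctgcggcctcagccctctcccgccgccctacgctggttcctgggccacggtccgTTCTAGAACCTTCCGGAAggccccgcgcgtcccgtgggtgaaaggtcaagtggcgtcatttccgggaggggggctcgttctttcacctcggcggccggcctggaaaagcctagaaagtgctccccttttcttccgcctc
Hspa1a and Hspa1b encode nearly the same inducible HSP70, and their windows were alike at 296 of 300 positions. They are shown because reads of these genes are hard to tell apart, at chr17:34972107-34972406 (Hspa1a) and chr17:34959189-34959488 (Hspa1b), both on the minus strand and in the direction of the gene, with the 4 positions that differ in capitals.
Hspa1a: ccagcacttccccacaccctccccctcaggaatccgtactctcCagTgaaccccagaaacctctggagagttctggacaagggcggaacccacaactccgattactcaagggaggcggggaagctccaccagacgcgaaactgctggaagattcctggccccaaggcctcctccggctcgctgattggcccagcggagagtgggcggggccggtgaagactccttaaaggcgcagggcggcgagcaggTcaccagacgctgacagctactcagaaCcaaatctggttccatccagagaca
Hspa1b: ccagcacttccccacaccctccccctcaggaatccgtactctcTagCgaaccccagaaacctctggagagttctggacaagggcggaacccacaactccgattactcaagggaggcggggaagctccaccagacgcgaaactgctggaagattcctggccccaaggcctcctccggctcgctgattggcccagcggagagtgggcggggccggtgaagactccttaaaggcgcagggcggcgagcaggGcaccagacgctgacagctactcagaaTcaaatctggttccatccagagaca
Of the read-length stretches of the Hspa1b transcript, 55.6% also occur in Hspa1a, so the split of reads between these genes is uncertain. The same limit applies to Hspa8, where 67.7% of such stretches occur in other genes, mostly pseudogenes, to Hsp90aa1 (52.9%), Hspb1 (47.1%), Hspd1 (33.3%) and Dnajb6 (33.2%).

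The libraries were alike in depth, with 19.2 to 20.8 M counts each. Of the hairpins of the cluster, Mir19a had 0 counts in all 19 KO libraries, against 1 to 13 counts in the WT libraries. Mir17 overlapped, with 0 to 3 counts in KO naive against 2 to 5 counts in WT naive libraries and 0 to 2 counts in KO stimulated against 0 to 9 counts in WT stimulated libraries. The host transcript Mir17hg was higher in KO libraries, at 80.5 to 144 CPM (counts per M counts of a library) in KO stimulated against 18.1 to 61.0 CPM in WT stimulated libraries, and at 36.0 to 54.0 CPM in KO naive against 24.9 to 34.5 CPM in WT naive libraries. Mir18 had 111 to 191 counts in the 4 TG naive libraries and 3 to 4 counts in the WT naive libraries, whereas after stimulation it had 4 to 27 counts in TG libraries, overlapping the 0 to 9 counts in WT libraries. Naive libraries also held transcripts of other cells. The summed level of 9 of 9 myeloid markers was 0.498 to 5.95 CPM in stimulated libraries and 85.7 to 297 CPM in naive libraries. For 6 of 7 B cell markers it was 12.6 to 68.3 CPM in stimulated and 123 to 325 CPM in naive libraries. Erythroid markers (4 of 6 measured) summed to 0.154 to 10.49 CPM in stimulated and 90.2 to 521 CPM in naive libraries. Summed levels of 10 of 10 immediate early genes such as Fos and Jun, which also respond to tissue dissociation, were 306 to 1256 CPM in stimulated and 4150 to 8849 CPM in naive libraries, with the highest in WT naive replicate 1. Markers of CD4+ T cells (4 of 5 measured) summed to 970.0 to 2009 CPM in stimulated and 2347 to 3278 CPM in naive libraries.

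As a share of each library's counts, RNA of most chaperone genes was higher in stimulated than in naive WT cells. Lower were 6 of the 10 stress-induced genes and 2 ER genes. After 24 h of the weak stimulus, 27 of the 40 genes were higher and 8 lower at an adjusted p under 0.05 in edgeR's quasi-likelihood test. Over all 13709 genes tested 77.4% were called, 36.8% higher and 40.7% lower, so the share called was near that of all genes and it is the direction that departed from it. The median log2 fold change was 1.07 over the 40 genes and -0.09 over all genes. Higher genes were 1 of 10 stress-induced, 5 of 7 other cytosolic, 9 of 11 ER, 5 of 5 mitochondrial and 7 of 7 TRiC genes, and lower genes were 6 stress-induced and 2 ER genes. Hspb1, 1 of the 6, passed the filter on low counts through its naive libraries, which fixed its call. Among the other 39 genes 27 were higher and 7 lower, 5 of them stress-induced, and at 48 h 28 were higher and 9 lower under either stimulus. The median log2 fold change of these 39 genes after 24 h of the weak stimulus was 1.09. The very weak stimulus at 24 h also gave 27 higher and 8 lower genes, with 76.3% of all genes called (36.1% higher, 40.2% lower). At 48 h the counts were 28 higher and 10 lower under the very weak stimulus, with 77.7% of all genes called (38.7% higher, 39% lower). They were again 28 and 10 under the weak stimulus, with 78.2% of all genes called (39.4% higher, 38.9% lower). Naive cells were never cultured, so the stimulus, the culture with IL-2 and the loss of other cells cannot be told apart in these comparisons. In bulk RNA, fewer cells of a type and less RNA per cell cannot be told apart either. CPM is a share of a library, so a difference in CPM does not give the amount of RNA per cell.

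**Figure D1:**
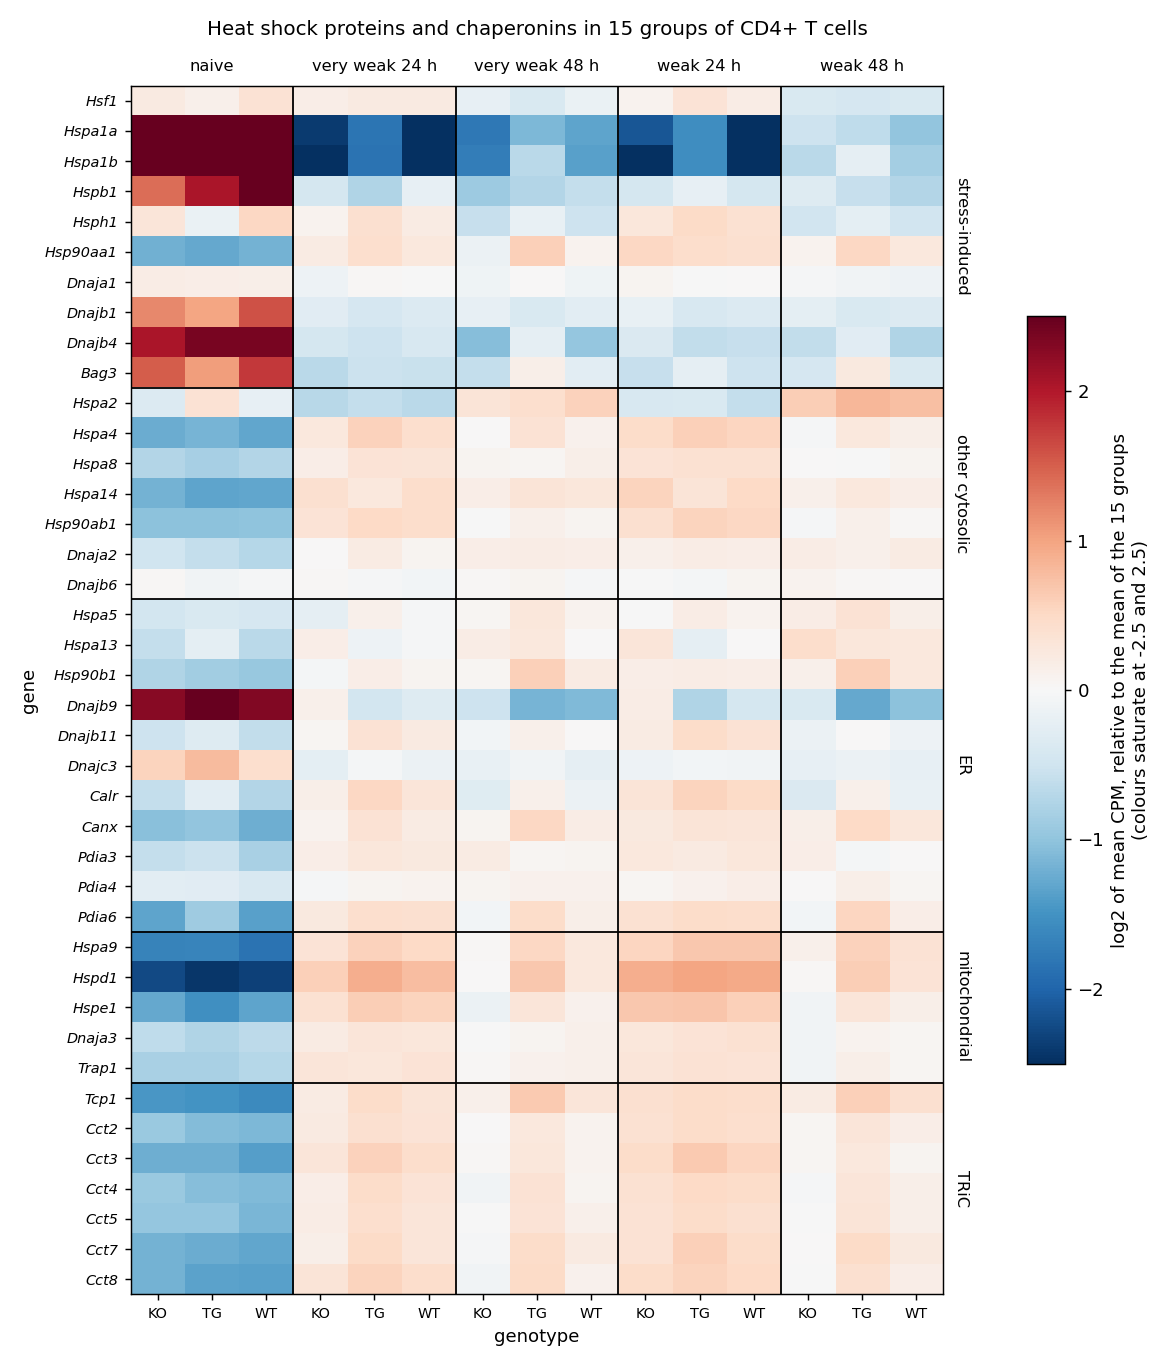
Levels of the 40 genes (rows, by class) in the 15 groups (columns), as the log2 of the mean CPM plus 0.1 relative to the mean of the 15 groups, with colours that saturate at 2.5 on either side of 0. TRiC, mitochondrial and most ER and other cytosolic genes have their low values in the 3 naive groups, whereas Hspa1a, Hspa1b, Hspb1, Dnajb1, Dnajb4, Bag3 and Dnajb9 have their high values there.

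Hspa1a and Hspa1b, the inducible HSP70 genes on chromosome 17, moved most of all members. Hspa1a had 0.844, 0.468, 0.312 and 0.619 CPM in the 4 WT libraries after 24 h of the weak stimulus, against 1510, 169 and 252 CPM in the WT naive libraries. Every stimulated library was below every naive one, but WT naive replicate 1 was far above the other two. The log2 fold change was -10.15 ± 0.70 (SE, adjusted p = 3.40e-18), and without WT naive replicate 1 it was -8.57 (adjusted p = 4.18e-18). Hspa1b had 1.64, 1.92, 0.727 and 1.55 CPM in stimulated cells, against 3507, 449 and 617 CPM in naive cells, with the same library on top and no overlap. Its log2 fold change was -10.02 ± 0.72 (adjusted p = 1.39e-17), and -8.54 without WT naive replicate 1. Both genes were also high in naive cells of the other genotypes, at 111 to 536 CPM for Hspa1a in KO naive and 83.4 to 340 CPM in TG naive libraries. Immediate early genes are set off when tissue is dissociated. Their summed level was likewise higher in naive libraries and highest in WT naive replicate 1. The other naive libraries did not keep the same order. TG naive replicate 1 came next in the immediate early sum (8266 CPM), with Hspa1a and Hspa1b at 843 CPM together. TG naive replicate 2 had 5311 CPM and 1148 CPM. Within the list Atf3 was higher after 24 h of the weak stimulus (log2 fold change 2.25), while the rest were lower. The part of these genes in the results was not tested.

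Dnajb4 and Dnajb1, J proteins that work with cytosolic HSP70, fell to lower levels that varied little between libraries. Dnajb4 had 12.03, 11.2, 11.2 and 12.3 CPM in stimulated cells, against 165, 59.3 and 46.9 CPM in naive cells, a log2 fold change of -2.95 ± 0.26 (adjusted p = 3.50e-14). Dnajb1 had 93.2, 89.6, 80.6 and 96.3 CPM in stimulated cells, against 590, 198 and 252 CPM in naive cells, a log2 fold change of -1.95 ± 0.19 (adjusted p = 5.96e-13). The groups did not overlap for either gene. WT naive replicate 1 was again on top, and without it the log2 fold changes were -2.22 for Dnajb4 and -1.36 for Dnajb1, both still called. Bag3, a cochaperone that couples HSP70 to autophagy, fell by 2.30 on the log2 scale. Hspb1, a small heat shock protein, had 0 to 3 counts in each of the 48 stimulated libraries and 0.426 to 2.65 CPM in WT naive libraries. Its values are a description, with no fold or test, because the stimulated libraries lie at the counting limit and it was measured at all only through naive libraries.

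**Figure D2:**
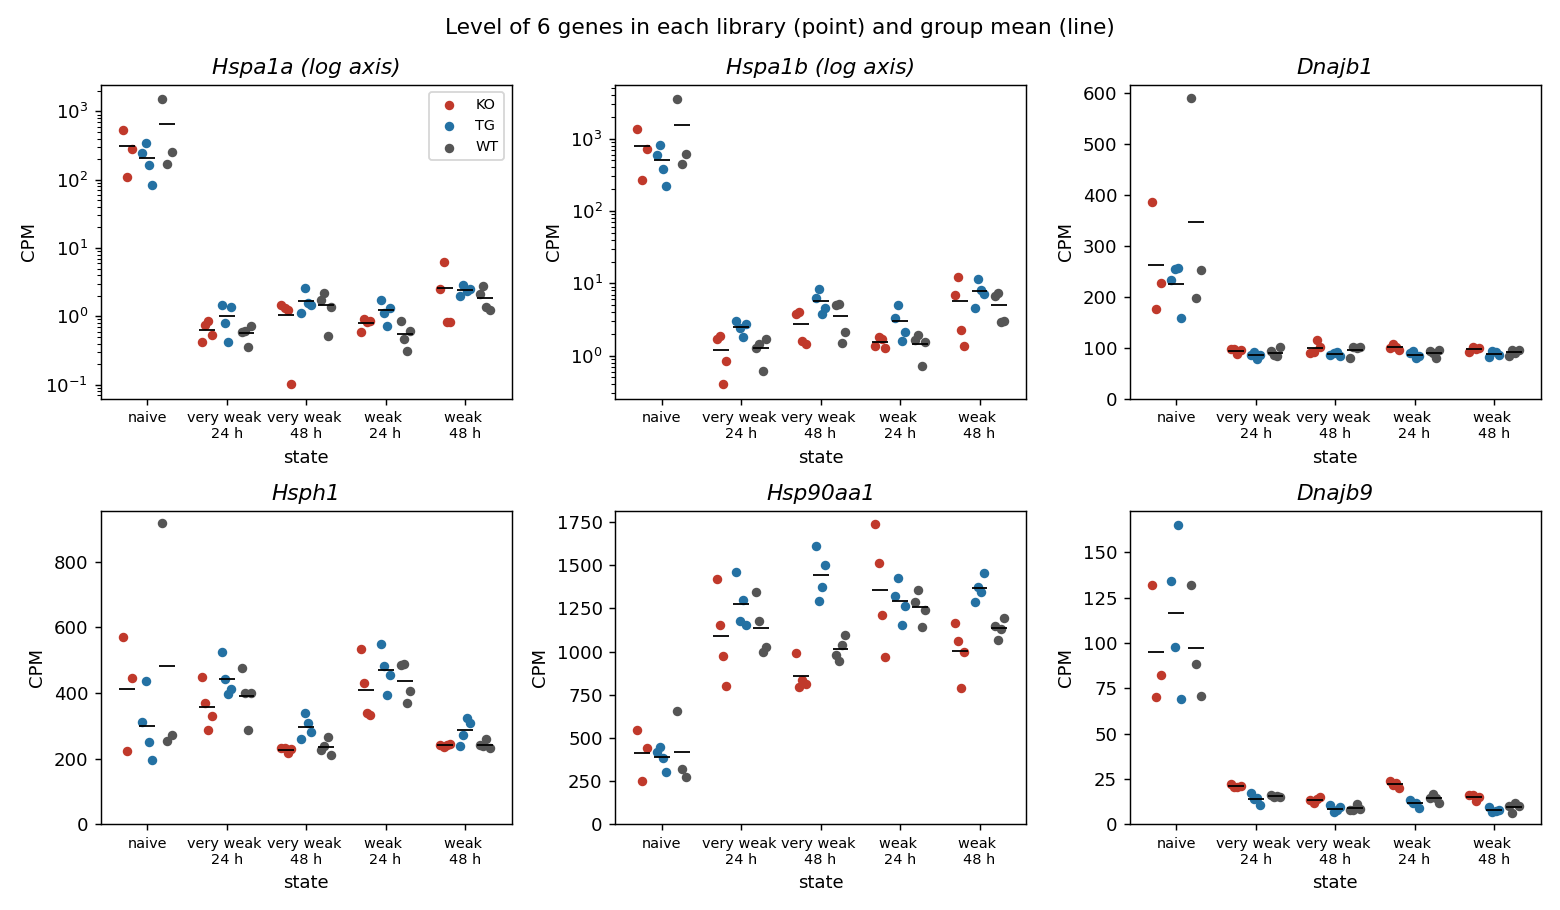
CPM of Hspa1a and Hspa1b (log axes), Dnajb1, Hsph1, Hsp90aa1 and Dnajb9 in each of the 58 libraries, by genotype and state; points are libraries. Hspa1a and Hspa1b lie at 83.4 CPM or above in every naive library, and Dnajb9 is higher in KO than in WT libraries in each of the 4 stimulated states.

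The stress-induced class did not move as a block. Hsp90aa1, the inducible HSP90, had 1287, 1353, 1144 and 1241 CPM in stimulated cells, against 659, 322 and 276 CPM in naive cells. In the fit of all libraries it was the one stress-induced gene called higher (log2 fold change 1.58 ± 0.21, adjusted p = 2.48e-09). Hsph1 (HSP110, which recharges HSP70), Dnaja1 and Hsf1 did not pass the test at 24 h, with log2 fold changes of -0.14, -0.14 and -0.16. At 48 h of the weak stimulus Hsf1 was lower than in naive cells, at 49.6, 58.9, 65.2 and 57.9 CPM against 93.0, 89.0 and 108 CPM (log2 fold change -0.74, adjusted p = 3.70e-07). Hsph1 was then called lower too (-0.99, adjusted p = 0.000564), but not without WT naive replicate 1 (-0.15, adjusted p = 0.542). The class median at 24 h was -2.13 on the log2 scale with Hspb1 counted. Without Hspb1 the middle value was that of Dnajb1, -1.95.

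The other cytosolic members, which are made in unstressed cells, were mostly higher in stimulated cells. Hspa14, an HSP70 relative found on ribosomes, had 282, 256, 263 and 285 CPM after 24 h of the weak stimulus, against 80.7, 79.7 and 75.3 CPM in naive cells (log2 fold change 1.79 ± 0.10, adjusted p = 2.45e-22). Hspa4, a nucleotide exchange factor for HSP70, had 710, 813, 697 and 695 CPM in stimulated cells, against 228, 197 and 190 CPM in naive cells (1.83 ± 0.10, adjusted p = 5.55e-22). Both groups were tight and far apart for each gene. Hsp90ab1, the constitutive HSP90, had 8027, 7111, 7592 and 6789 CPM in stimulated cells, against 3315, 2165 and 2243 CPM in naive cells (1.52 ± 0.11, adjusted p = 2.16e-17). Dnaja2, a J protein, had 310, 329, 311 and 307 CPM in stimulated cells, against 186, 170 and 155 CPM in naive cells, a log2 fold change of 0.89. Hspa8, the constitutive HSP70, was higher by 1.12. Dnajb6 (0.10) and Hspa2 (-0.40, at under 5 CPM in each of these libraries) did not pass the test.

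In the ER the folding enzymes and lectins were higher while Dnajb9 went the other way. Pdia6, a protein disulfide isomerase, had 421, 381, 372 and 360 CPM in stimulated cells, against 116, 105 and 111 CPM in naive cells (log2 fold change 1.79 ± 0.12, adjusted p = 1.84e-18). Canx, the membrane lectin calnexin, had 734, 772, 733 and 713 CPM in stimulated cells, against 286, 254 and 239 CPM in naive cells (1.51 ± 0.11, adjusted p = 1.67e-17). Dnajb11, a J protein of the ER lumen, had 213, 184, 188 and 189 CPM in stimulated cells, against 99.3, 96.9 and 101 CPM in naive cells (0.97 ± 0.09, adjusted p = 8.91e-14). None of these groups overlapped. The remaining higher genes ranged from Hspa5 (BiP, the ER HSP70, 0.52 ± 0.18, adjusted p = 0.0100, but 0.0979 without WT naive replicate 4 and 0.0667 without WT naive replicate 2) to Calr (calreticulin, 1.21), with Hsp90b1, Pdia3, Pdia4 and Hspa13 between them. Of the 6 genes with an ER stress element, 5 (Hspa5, Hsp90b1, Calr, Canx and Pdia6) were higher, and Dnajc3, an inhibitor of the kinase PERK, was lower (-0.52 ± 0.09, adjusted p = 8.69e-07). Of the ER genes whose windows held no such element, Dnajb11, Pdia3 and Pdia4 were higher and Dnajb9 was lower.

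Dnajb9 (ERdj4), a J protein that binds BiP and a known target of XBP1, fell in every stimulated state. It had 14.67, 16.8, 14.5 and 11.9 CPM after 24 h of the weak stimulus, against 132, 88.6 and 71.0 CPM in naive cells, a log2 fold change of -2.75 ± 0.21 (adjusted p = 1.35e-16). After 48 h it stood at 10.1, 6.39, 11.8 and 10.0 CPM, a log2 fold change of -3.34 from naive cells. All stimulated libraries lay below all naive ones. Read sharing is low for this gene, at 2.64% of its read-length stretches.

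All 5 mitochondrial members were higher in stimulated cells. Hspa9 (mortalin, the mitochondrial HSP70 that pulls proteins through the inner membrane) had 1407, 1396, 1345 and 1298 CPM, against 253, 229 and 222 CPM in naive cells (log2 fold change 2.54 ± 0.13, adjusted p = 1.34e-22). Hspd1 (HSP60) had 1757, 1847, 1557 and 1618 CPM in stimulated cells, against 237, 141 and 145 CPM in naive cells (3.28 ± 0.18, adjusted p = 1.83e-21), the largest rise of any member at this time. Hspe1 (HSP10), its partner across the shared promoter, was higher by 1.92 ± 0.18. Per length, in RPKM (CPM per kilobase of exon), Hspd1 stood at 1.54 ± 0.14 times Hspe1 over the 48 stimulated libraries (SD, range 1.25 to 1.80) and at 0.674 ± 0.069 times Hspe1 over the 10 naive libraries (range 0.595 to 0.792). These ranges did not overlap, and both genes share stretches with pseudogenes. Trap1, the mitochondrial HSP90, and Dnaja3, a mitochondrial J protein, were higher by 1.06 and 1.03.

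The 7 TRiC subunits moved together. Tcp1 (subunit 1) had 1056, 1113, 1000 and 1022 CPM in stimulated cells, against 283, 252 and 233 CPM in naive cells (log2 fold change 2.03 ± 0.12, adjusted p = 2.54e-20). Cct8 had 994, 992, 965 and 944 CPM in stimulated cells, against 303, 260 and 241 CPM in naive cells (1.86 ± 0.12, adjusted p = 2.74e-19). Cct3 had 940, 891, 862 and 788 CPM in stimulated cells, against 244, 218 and 233 CPM in naive cells (1.91 ± 0.13). All 7 log2 fold changes lay between 1.54 and 2.03, a narrower range than in any other class. The subunits enter the ring in equal numbers, but their RNA levels per length differed. In WT cells after 24 h of the weak stimulus the highest subunit (Cct5) was 2.36 times the lowest (Tcp1). In WT naive cells it was 3.30 times. The length used is that of all counted exons, 4044 bases for Tcp1 and 1769 bases for Cct5. Their longest coding transcripts held 2371 and 1778 read-length stretches. Which subunit is lowest, and both ratios, thus depend on the length used.

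The sums over each class show how the balance of the 40 genes differed. In WT cells after 24 h of the weak stimulus, TRiC genes summed to 6742 CPM, against 2032 CPM in naive cells. Mitochondrial genes summed to 3774 CPM in stimulated and 683 CPM in naive cells. ER genes summed to 5909 CPM in stimulated and 3122 CPM in naive cells, and other cytosolic genes to 12729 CPM in stimulated and 4909 CPM in naive cells. Stress-induced genes summed to 2101 CPM in stimulated cells, against 3868 CPM in naive cells with a range of 1759 to 7828 CPM. That direction rests on WT naive replicate 1, since the other 2 naive libraries averaged 1887 CPM, below the stimulated cells. Per length Hsp90ab1 ranked first and Hspa8 second in both states, at 2944 and 1263 RPKM in stimulated cells. Next came Hspd1 (727 RPKM) in stimulated cells and Hspa1b (543 ± 612, SD, n = 3) in naive cells, a level that rests on WT naive replicate 1.

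**Figure D3:**
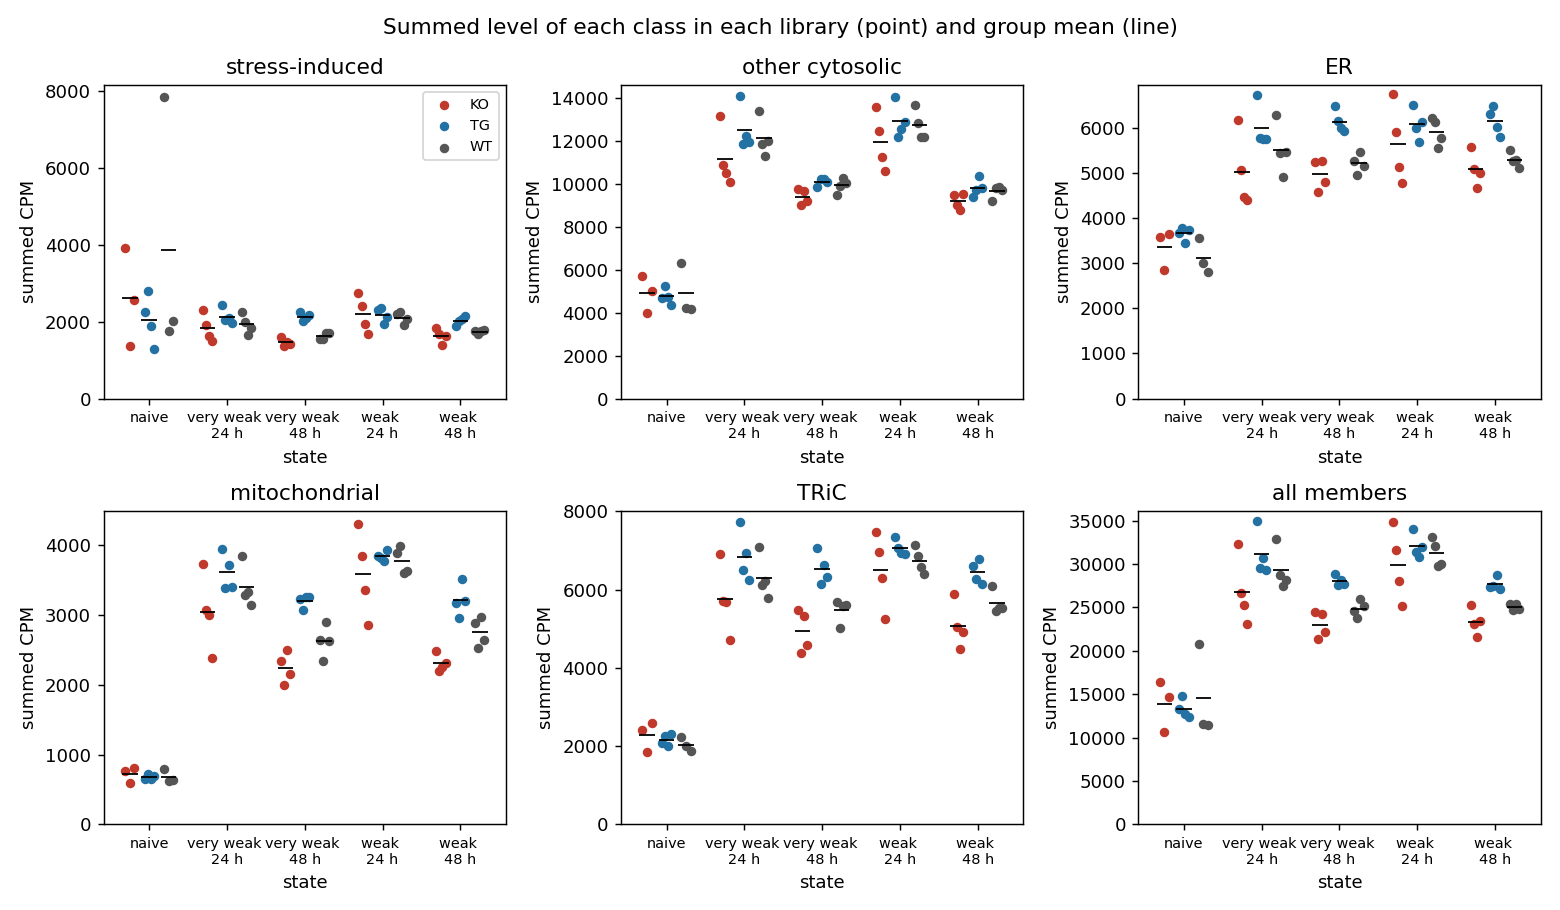
Summed CPM of each class and of all 40 genes in every library, by genotype and state; points are libraries. Naive libraries are the lowest in the TRiC, mitochondrial, ER and other cytosolic panels, and the stress-induced panel is the one in which a naive library, WT naive replicate 1, is the highest.

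Intronic reads, which come from RNA not yet spliced, gave a second view of the same libraries. Of the 35 members that passed the filter in the intron table, 12 were higher and 13 lower in WT cells after 24 h of the weak stimulus than in WT naive cells, where 60.7% of 12366 genes were called. Stress-induced genes were lower in 6 of 7 cases. Hsph1 introns had 36.7, 41.4, 30.4 and 38.1 CPM in stimulated cells, against 1278, 313 and 371 CPM in naive cells (log2 fold change -4.16 ± 0.32, adjusted p = 3.54e-16, and -3.24 without WT naive replicate 1). Its exonic counts did not differ by the test of all libraries, a result that depends on WT naive replicate 1. Dnaja1 introns had 115, 158, 81.5 and 93.7 CPM in stimulated cells, against 1204, 523 and 574 CPM in naive cells (-2.77 ± 0.24, adjusted p = 9.75e-15), again with no exonic call. Dnajb1 introns fell by 5.48 on the log2 scale, and Bag3 introns by 3.10. Hsp90aa1 introns, chosen after their values were seen, fell by 2.66 (adjusted p = 6.56e-11), to 10.6, 16.7, 12.1 and 11.8 CPM in stimulated cells, against 118, 49.1 and 75.9 CPM in naive cells, while its exonic counts rose.

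Outside the stress-induced class several introns were higher. TRiC introns were higher for 4 of 7 genes and lower for none, with Tcp1 at 50.4, 63.0, 55.7 and 51.3 intronic CPM in stimulated cells against 26.6, 24.1 and 24.0 CPM in naive cells (log2 fold change 1.14). Introns of Canx (1.37), Pdia3 (1.21), Hspa14 (1.03) and Hspa9 (0.96) were higher too, and those of Dnajb9 were lower (-3.08) like its exons. Hspe1 introns were lower (-2.30) against higher exons, and Hspd1 introns did not pass the test (-0.23). These rises depend on the scale. Intronic reads were 25.6% (KO), 26.2% (TG) and 28.1% (WT) of all counts in naive groups, against 14.3% to 16.5% in stimulated groups. When intron counts were scaled by the full table instead, the median over all genes moved to -1.36. On that scale 0 members were higher and 29 lower, where 7.8% of all genes were called higher and 70.8% lower. A fall there was thus the usual outcome for a gene. Only the falls of the intron signal were called on both scales. The full-table scale shifts values downwards, so a fall could not reverse there and the second scale adds no support.

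**Figure D4:**
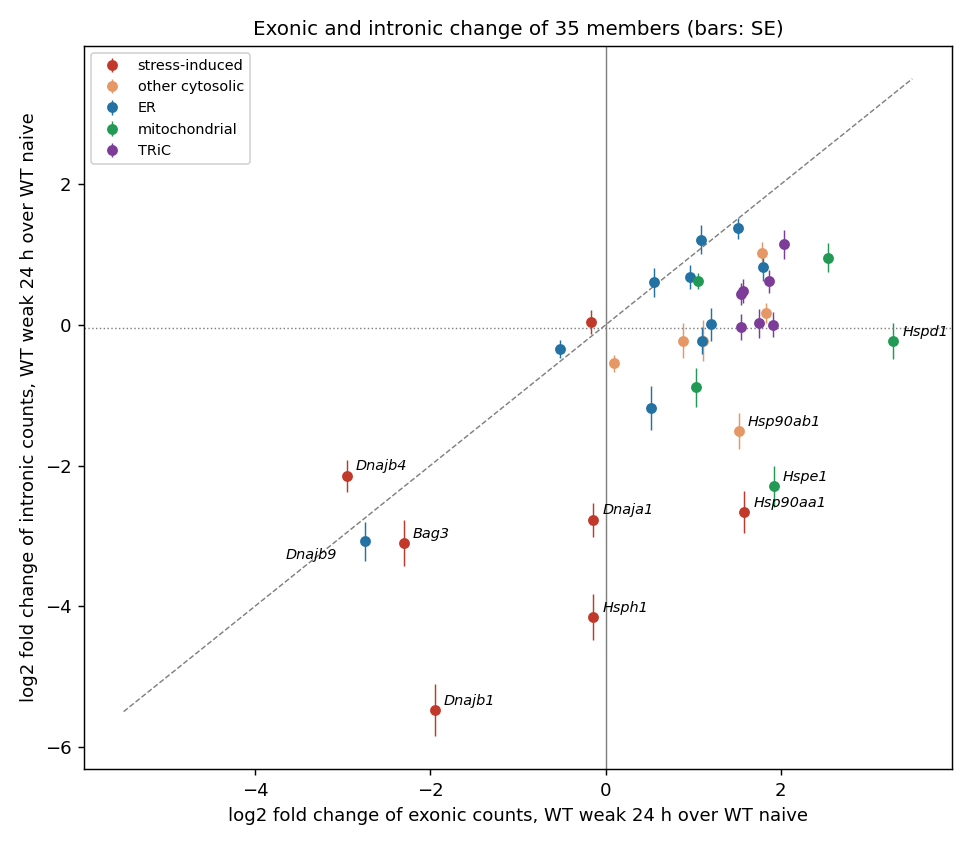
Log2 fold change of exonic counts (x axis) and intronic counts (y axis) in WT cells after 24 h of the weak stimulus relative to WT naive cells, for the 35 members measured in both, coloured by class. Hsph1, Dnaja1, Hsp90aa1 and Hspe1 lie well below the diagonal, with intronic values of -4.16, -2.77, -2.66 and -2.30.

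Many members were lower in WT cells at 48 h than at 24 h. Under the weak stimulus 2 members were higher and 20 lower at 48 h than at 24 h, where 41.4% of all genes were called, 22% higher and 19.4% lower. Under the very weak stimulus 1 was higher and 12 lower (34.4% of all genes called, 18.4% higher and 16% lower). Without WT weak 48 h replicate 2 the count under the weak stimulus was 14. Dnajb11 had 138, 147, 145 and 127 CPM at 48 h of the weak stimulus, against 213, 184, 188 and 189 CPM at 24 h (log2 fold change -0.47 ± 0.08, adjusted p = 6.96e-06). Hsp90ab1 had 4900, 5761, 5125 and 5406 CPM at 48 h, against 8027, 7111, 7592 and 6789 CPM at 24 h (-0.48 ± 0.10, adjusted p = 0.000101). Neither pair of groups overlapped. Calr (-0.66), Hsph1 (-0.85), Hspd1 (-0.61), Hsf1 (-0.57) and Dnajb9 (-0.60) were lower as well, all 5 also under the very weak stimulus. Cct3 fell by 0.47 and Cct8 by 0.34, whereas Tcp1 (-0.04) and Cct7 (-0.21) did not pass the test. Hspd1 at 48 h, with 1115, 978, 1322 and 1022 CPM, still lay far above the naive libraries.

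The exceptions were 2 HSP70 genes of low level. Hspa2, a member best known from the testis, had 7.12, 7.71, 3.80 and 5.19 CPM at 48 h of the weak stimulus, against 2.85, 1.61, 2.34 and 2.27 CPM at 24 h (log2 fold change 1.39 ± 0.32, adjusted p = 0.000494). It was also higher at 48 h under the very weak stimulus (1.29, adjusted p = 0.00165). Hspa1b had 6.76, 7.36, 2.90 and 3.00 CPM at 48 h, against 1.64, 1.92, 0.727 and 1.55 CPM at 24 h (1.77 ± 0.66, adjusted p = 0.0278), a call lost without WT weak 24 h replicate 3 (adjusted p = 0.0819) or without WT weak 48 h replicate 1 (0.0753) or 2 (0.0908). The groups did not overlap for either gene, yet Hspa1b at 48 h stayed far below any naive library.

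Differences between the strengths of the stimulus were small and depended on the fit. Between the weak and the very weak stimulus edgeR called 0 of the 40 genes at 24 h and 0 at 48 h, and 0% of all genes at either time. At an unadjusted p under 0.05 there were 0 members at both times, against 280 genes of the whole table at 24 h and 352 at 48 h, and DESeq2 called 0 members at both times. Same-numbered libraries deviated together here. In a fit of only these groups with the replicate number as a block, chosen after seeing the data, 1 member was called at 24 h, Hspa9, higher by 0.18 on the log2 scale under the weak stimulus (adjusted p = 0.0342). All genes called in that fit were 1.42% higher and 2.13% lower. At 48 h the same kind of fit called Hspa1b (0.55, adjusted p = 0.0417) and Hsp90aa1 (0.16, adjusted p = 0.0478) higher and Hsf1 (-0.22, adjusted p = 0.0334) lower, with 3.98% of all genes higher and 2.11% lower. A p that misses the threshold does not show that the levels were equal.

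Lists of genes that work beside the 40 were mostly higher in WT cells after 24 h of the weak stimulus, except for ER quality control and further heat shock genes. Of 19 cochaperones of HSP90 and HSP70, 16 were higher and 2 lower, among them St13 (1.54), Ptges3 (1.93) and Dnajc2 (1.70) on the log2 scale. Of 10 prefoldin genes and further TRiC subunits, 8 were higher and 1 lower, with Cct6a at 2.53 and Pfdn4 and Pfdn1, subunits of the complex that hands actin and tubulin to TRiC, at 2.03 and 1.33. Of 14 genes of mitochondrial protein quality, 11 were higher and 1 lower, among them Clpb (1.203), Clpp (2.03) and Grpel1 (1.33), all higher. Genes of the unfolded protein response and ER quality control were split, with 12 of 26 higher and 7 lower. Sdf2l1 (3.08) and Creld2 (1.71) were higher, whereas Eif2ak3, which encodes the stress sensor PERK, was lower (-1.44). Ddit3 (-2.04), Ern1 (-1.85), Herpud1 (-0.94) and Edem1 (-0.61) were lower too, so the list gave no common direction. Of 14 further heat shock genes that passed the filter, out of 18, 3 were higher and 7 lower. They include Hspa1l, the neighbour of Hspa1a and Hspa1b (-8.75, and -7.41 without WT naive replicate 1), and the J proteins Dnaja4 (-1.45) and Dnajb2 (-0.82). The median over all genes was -0.09, with 36.8% of all genes called higher and 40.7% lower.

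KO cells without the cluster differed little from WT cells in these genes, with Dnajb9 as the clearest exception. In naive cells edgeR called 0 of the 40 genes (0.0365% of all genes called; 3 members at an unadjusted p under 0.05; DESeq2 called 0). After stimulation edgeR called 0 members at 24 h of the very weak stimulus (1.06% of all genes called; 2 members at an unadjusted p under 0.05), 0 at 48 h of it (4.63%; 3 members) and 0 at 24 h of the weak stimulus (1.4%; 2 members), and DESeq2 called 0 in each. At 48 h of the weak stimulus 1 member, Dnajb9, was called higher (5.04% of all genes called, 3.05% higher and 1.99% lower). Averaged over the 4 stimulated states, 2 members were higher and 9 lower, where 24.4% of all genes were called, 13% higher and 11.4% lower. The median log2 fold change was -0.09 over the members and -0.00 over all genes.

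Dnajb9 was higher in KO than in WT cells in each stimulated state. At 48 h of the weak stimulus it had 16.2, 16.1, 13.1 and 14.96 CPM in KO cells, against 10.1, 6.39, 11.8 and 10.0 CPM in WT cells (log2 fold change 0.66 ± 0.20, adjusted p = 0.0425). At 24 h of the weak stimulus it had 23.9, 21.9, 22.9 and 20.2 CPM in KO cells, against 14.67, 16.8, 14.5 and 11.9 CPM in WT cells (0.62, adjusted p = 0.101). The call at 48 h of the weak stimulus was lost in 6 of the 8 fits without 1 of its libraries (adjusted p up to 0.203, without WT weak 48 h replicate 2). KO libraries lay above WT libraries without overlap in all 4 stimulated states, although only 48 h of the weak stimulus passed the test. With the replicate number as a block Dnajb9 was called after 24 h (0.62, adjusted p = 0.0249) and 48 h (0.67, adjusted p = 0.00841) of the weak stimulus, and after 48 h of the very weak one (0.60, adjusted p = 0.0226). The mean of the 4 states gave 0.58 ± 0.10 (adjusted p = 1.49e-05). That mean treats 16 libraries per genotype as replicates, although same-numbered libraries of different states deviated together, so counts were also summed over the 4 states by replicate number. These sums stood at 18.95, 17.5, 17.7 and 17.96 CPM in KO cells, against 12.2, 11.6, 13.3 and 11.5 CPM in WT cells, and Dnajb9 was called on them too (0.57, adjusted p = 0.00768), where 1.92% of all genes were higher and 0.805% lower. In naive cells the log2 fold change was -0.03, with 132, 70.4 and 82.4 CPM in KO and 132, 88.6 and 71.0 CPM in WT cells, and the test of the difference between stimulated and naive cells did not pass (0.61, adjusted p = 0.344). In TG cells the mean of the 4 states was -0.20 (adjusted p = 0.122).

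The other 10 calls in KO cells were small and were lost on the sums. Hspa13, an ER-associated HSP70 relative, was higher by 0.21 ± 0.07 (adjusted p = 0.0126). The 9 lower genes were Hspa4, Dnajb11, Calr, Pdia6, Hspa9, Hspd1, Dnaja3, Cct7 and Cct8, with log2 fold changes from -0.20 to -0.11. On sums, Hspd1 had 1363, 1210, 1162 and 1004 CPM in KO cells, against 1395, 1292, 1385 and 1267 CPM in WT cells, which overlap. Cct7 had 787, 678, 690 and 586 CPM in KO cells, against 830, 781, 755 and 747 CPM in WT cells, with KO replicate 4 the lowest and KO replicate 1 inside the WT range. Within replicates 1 and 2 alone 3 members were higher and 0 lower (8.16% of all genes higher, 5.91% lower). Within replicates 3 and 4 alone 1 was higher and 13 lower (11.7% of all genes higher, 9.9% lower). For 2 of the neighbouring lists the counts by the mean of the 4 states are given here. They were 1 higher and 2 lower of 19 cochaperones. Of 26 genes of the unfolded protein response and ER quality control, 2 were higher and 8 lower. Over all genes that mean gave 13% higher and 11.4% lower.

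TG cells with the added cluster showed higher levels of a set of folding genes after stimulation. Averaged over the 4 stimulated states, 16 members were higher and 0 lower than in WT cells, where 33.8% of all genes were called, 16.1% higher and 17.7% lower. They comprised 6 of 7 TRiC, 5 of 11 ER, 3 of 10 stress-induced, 1 of 7 other cytosolic and 1 of 5 mitochondrial genes, and the median log2 fold change was 0.13 over the members and -0.01 over all genes. On the sums by replicate number, which do not count libraries with shared deviations as independent, 9 members were higher and 0 lower (9.34% of all genes higher, 10.8% lower). The sizes were small. Canx had 845, 749, 812 and 835 CPM in TG cells on sums, against 743, 684, 737 and 688 CPM in WT cells (0.18 ± 0.05 in the mean of the 4 states, adjusted p = 0.00235). Cct8 had 1029, 914, 987 and 960.0 CPM in TG cells, against 899, 807, 879 and 839 CPM in WT cells (0.19 ± 0.05, adjusted p = 0.00325). Calr had 1197, 1140, 1146 and 1091 CPM in TG cells, against 1025, 1020, 980.3 and 943 CPM in WT cells (0.21 ± 0.06, adjusted p = 0.00388). The 4 TG sums lay above the 4 WT sums for each of these genes. Hspd1 had 1536, 1469, 1589 and 1538 CPM in TG cells, against 1395, 1292, 1385 and 1267 CPM in WT cells (0.22 ± 0.07, adjusted p = 0.0206). For Canx, Cct8, Calr and Hspd1 alike, the fold change, SE and adjusted p are from edgeR's test of the mean of the 4 states, not of the sums. That test treats 16 libraries per genotype as replicates, although same-numbered libraries deviated together.

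In single states the number of members called in TG cells depended on the fit. At 24 h edgeR called 0 under the very weak stimulus (3.73% of all genes called; 1 member at an unadjusted p under 0.05) and 0 under the weak stimulus (4.81%; 0 members), and DESeq2 called 0 in both. Same-numbered libraries deviated together in all 4 states. Fits of only the groups compared with a replicate block, chosen after seeing the data, called 13 members higher and 1 lower at 24 h of the very weak stimulus (12.9% of all genes higher, 11.1% lower). They called 3 higher and 3 lower at 24 h of the weak stimulus (13.6% and 12.9%). After 48 h they called 15 higher and 1 lower under the very weak stimulus (12.3% and 14%), and 15 higher and 0 lower under the weak stimulus (13% and 12.9%). The difference in these counts between states was not tested. At 48 h of the very weak stimulus 7 were higher and 0 lower (13.3% of all genes called, 6.08% higher and 7.24% lower): Dnajb4, Hspa4, Hsp90b1, Canx, Pdia6, Tcp1 and Cct8. With the replicate number as a block in the fit of all libraries, 11 members were higher (9.04% of all genes higher, 9.72% lower), and without WT very weak 48 h replicate 2 there were 0. Hsp90b1 (GRP94, the ER HSP90) then had 1492, 1369, 1252 and 1261 CPM in TG cells, against 1019, 981, 1060 and 1046 CPM in WT cells (log2 fold change 0.39 ± 0.12, adjusted p = 0.0208). Tcp1 had 1337, 1131, 1217 and 1183 CPM in TG cells, against 1021, 852, 929 and 1004 CPM in WT cells (0.35 ± 0.11, adjusted p = 0.0185). Dnajb4 had 18.2, 16.4, 12.1 and 12.9 CPM in TG cells, against 9.82, 7.88, 9.93 and 8.05 CPM in WT cells (0.74 ± 0.25, adjusted p = 0.0393). No TG library overlapped a WT library for these 3 genes. At 48 h of the weak stimulus 1 member was called, Pdia6 (9.96% of all genes called, 4.3% higher and 5.66% lower), with 427, 497, 387 and 342 CPM in TG cells and 325, 330, 325 and 297 CPM in WT cells (0.37, adjusted p = 0.0154), and with the replicate block there were 3, all higher (6.49% of all genes higher, 7.64% lower): Pdia6, Hsp90b1 (0.31) and Bag3 (0.62).

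**Figure D5:**
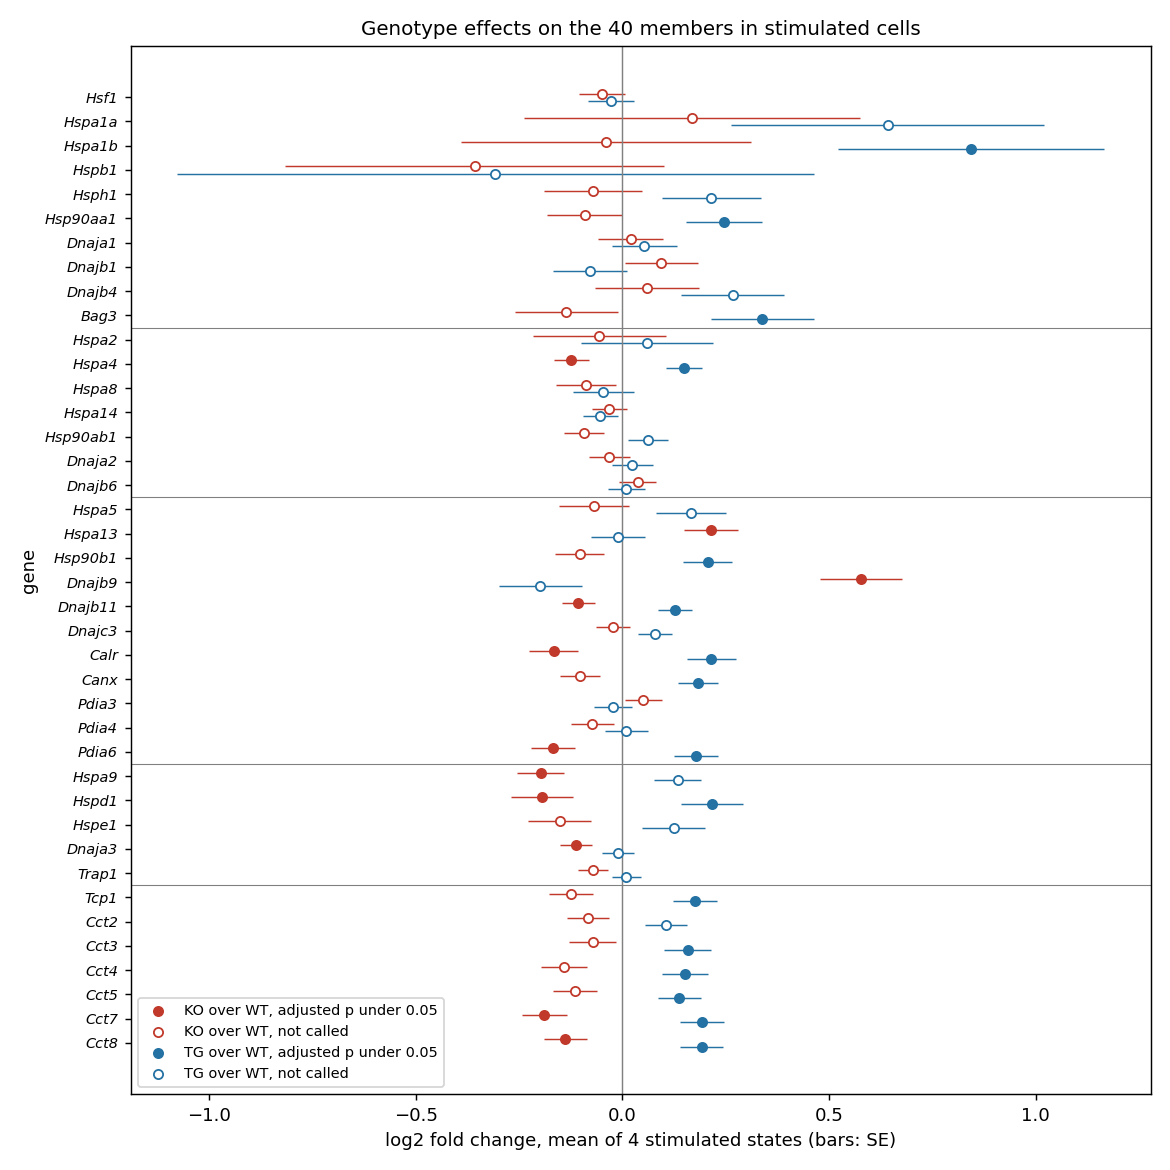
Log2 fold change of each of the 40 genes, averaged over the 4 stimulated states, in KO over WT cells and in TG over WT cells, with the SE as bars. Dnajb9 stands out at 0.58 in KO cells, and the TRiC genes lie between 0.11 and 0.19 in TG cells and between -0.19 and -0.07 in KO cells; both comparisons use the same WT libraries.

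The 48 h class sums place the genotypes side by side. TRiC genes summed to 5006 CPM in KO, 6489 CPM in TG and 5559 CPM in WT cells (means of 8 libraries). Mitochondrial genes summed to 2279 CPM in KO, 3206 CPM in TG and 2693 CPM in WT cells. ER genes summed to 5026 CPM in KO, 6144 CPM in TG and 5250 CPM in WT cells. The KO value was the lowest and the TG value the highest in each class, a description without a test. Per length, Hsp90aa1 stood at 0.156 ± 0.022 of Hsp90ab1 in KO, 0.213 ± 0.021 in TG and 0.172 ± 0.019 in WT libraries at 48 h (SD, n = 8 each), the stress-induced HSP90 thus being nearest to the constitutive one in TG cells.

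In naive cells the TG and WT genotypes differed in ER genes, whereas calls in heat-inducible genes rested on WT naive replicate 1. Compared with WT naive cells, 4 members were higher and 3 lower in TG naive cells (7.83% of all genes called, 4.33% higher and 3.5% lower). Calr had 726, 747, 638 and 894 CPM in TG naive cells, against 615, 523 and 487 CPM in WT naive cells (log2 fold change 0.47 ± 0.13, adjusted p = 0.0158). Pdia6 had 146, 159, 137 and 171 CPM in TG naive cells, against 116, 105 and 111 CPM in WT naive cells (0.47 ± 0.12, adjusted p = 0.00648). Dnajc3 had 273, 273, 222 and 292 CPM in TG naive cells, against 209, 211 and 199.5 CPM in WT naive cells (0.36 ± 0.09, adjusted p = 0.00656). Dnajb11 was higher by 0.30 ± 0.09 (adjusted p = 0.0264). The TG naive libraries lay above the WT naive ones for all 4 genes. Of these, 3 (Calr, Pdia6 and Dnajc3) carry the ER stress element shown above, as do 6 of the 10 ER genes with a window. Hspa5, Hsp90b1 and Canx carry it too and were not called. Without TG naive replicate 4, 2 members were called in all. Calr lost its call in 3 and Dnajb11 in 4 of the 7 fits without 1 library, whereas Pdia6 and Dnajc3 kept theirs.

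The 3 lower genes were Hspa1a (-1.62, adjusted p = 0.0180), Hspa1b (-1.60, adjusted p = 0.0322) and Dnajb1 (-0.62, adjusted p = 0.0308). Hspa1a had 247, 340, 164 and 83.4 CPM in TG naive cells, against 1510, 169 and 252 CPM in WT naive cells, which overlap. Without WT naive replicate 1 the log2 fold changes were -0.02 for Hspa1a, -0.09 for Hspa1b and -0.00 for Dnajb1, and 5 members were higher and 0 lower (2.71% of all genes higher, 2.61% lower), so these 3 calls rested on that library. The same holds for the change of the TG effect between naive and stimulated cells. It was positive and called for 4 members (6.18% of all genes called, 2.55% higher and 3.63% lower), Hspa1a (2.27 ± 0.59), Hspa1b (2.45 ± 0.59), Hsph1 (0.90 ± 0.28) and Bag3 (1.06 ± 0.28). Without WT naive replicate 1 edgeR called 0 members, with values of 0.67, 0.95, 0.05 and 0.74 for these genes. In KO cells that change was called for 0 members by edgeR (0.168% of all genes called; 11 members at an unadjusted p under 0.05) and for 0 by DESeq2.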

How the data were processed

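The authors deposited raw counts per gene, whole numbers by their values, in 1 table of full genes and 1 of introns. STAR 2.5.2a, FastQC 0.11.5, edgeR 3.24.3, R 3.5 and build mm10 stand in the submitters' processing notes. The sources used here do not give the counter, its annotation or its strand setting, so reads of overlapping genes (Hspd1 with Hspe1, Hspa5 with Rabepk, Tcp1 with Mrpl18 and Acat3) may not be told apart. Intron counts exceed full counts in 14.1% of values, so the 2 tables are taken as exonic and intronic. Reads carry no molecular identifiers. RefSeq gave a symbol for 23968 of 24028 Entrez IDs.

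All 58 libraries entered 1 fit in edgeR 4.0.16 (R 4.3.3) with 15 group means, 43 residual degrees of freedom, TMM factors (0.939 to 1.06) and the filterByExpr filter, and genes were tested by its quasi-likelihood F test with Benjamini-Hochberg adjustment over all genes tested, called under 0.05. The step was tested on simulated data. Intron counts (12366 genes) were fitted likewise. Levels are CPM with TMM-scaled totals, and comparisons between genes use that level per kilobase of exon. Sums over the 4 stimulated states, DESeq2 1.42.0, other filters and scalings, the replicate block and 58 refits without 1 library were alternatives. Libraries with the same number deviated together in the KO and TG comparisons of the 4 stimulated states and between stimulus strengths. Every pair's correlation there was above 0.1 (0.132 to 0.631). This was not so between WT states and naive cells. The pairing comes from the values, since the labels do not say what a number marks.

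The 40 members, their classes, the neighbouring gene lists and the markers were chosen with earlier results of these data known. Full statistics go to at most 4 members of a class, and to 3 called genes of a neighbouring list, by smallest adjusted p. A count of 5 or fewer is named in full.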

Additional observations from a re-analysis of the deposited data

Results flagged for a closer look

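Single libraries stood apart from the other 3 of their group in 30 of 519 tests over the 40 genes (a gap to the nearest library above Dixon's critical share of the group's range), close to the 1 in 20 groups that chance flags. WT very weak 24 h replicate 1 held 4 of them, the most of any library: Canx (777 CPM), Pdia6 (429.7 CPM), Cct7 (904 CPM) and Dnajc3 (152 CPM), all above their group.

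At low levels, Hspa1a stood at 0.101 CPM in KO very weak 48 h replicate 4, and Hspb1 at 0 CPM in KO weak 24 h replicate 4, 0.0509 CPM in WT weak 48 h replicate 4, 0.0495 CPM in TG very weak 24 h replicate 2, 0.0515 CPM in TG very weak 48 h replicate 2 and 0.101 CPM in WT very weak 48 h replicate 1. In the same library Dnajb1 was at 80.5 CPM, under its group, and Bag3 was at 9.14 CPM in WT weak 48 h replicate 2. The Hspb1 flags, which are among the 30, rest on libraries with 0 to 3 counts. There a single read is enough to set a library apart, so these flags say nothing about its level. Among cytosolic genes, Hspa4 was at 813 CPM in WT weak 24 h replicate 2 and 470.1 CPM in KO very weak 48 h replicate 1, Hspa8 at 2028 CPM in TG naive replicate 2 and Dnajb6 at 37.8 CPM in TG weak 24 h replicate 3. Dnaja2 stood apart in replicate 2 of 3 groups, at 270.1 CPM in TG weak 48 h, 273 CPM in WT weak 48 h and 329 CPM in WT weak 24 h.

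Among ER genes, Hspa5 was at 1447 CPM in WT weak 48 h replicate 1 and 1558 CPM in TG very weak 48 h replicate 1, Hspa13 at 21.1 CPM in WT very weak 24 h replicate 3 and Dnajc3 at 137 CPM in TG weak 24 h replicate 2. Canx was at 256 CPM in TG naive replicate 3 and Pdia6 at 297 CPM in WT weak 48 h replicate 4. Among mitochondrial and TRiC genes, replicate 1 was high for Hspa9 in KO weak 48 h (1098 CPM) and WT weak 48 h (1241 CPM) and for Cct2 in KO weak 48 h (1076 CPM), Hspe1 was at 426 CPM in TG weak 24 h replicate 2 and Trap1 at 261 CPM in WT very weak 48 h replicate 3.

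The TG effect differed between stimulated and naive cells for Hspa1a (2.27 on the log2 scale, adjusted p = 0.0135), Hspa1b (2.45, adjusted p = 0.00671), Hsph1 (0.90, adjusted p = 0.0427) and Bag3 (1.06, adjusted p = 0.0149) in edgeR's quasi-likelihood test, and for 0 of them without WT naive replicate 1.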

How the results depend on the processing

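The counts of members called in WT stimulated against naive cells stayed at 34 to 36 (24 h) and 37 to 38 (48 h) whichever library was left out; the intron count ran from 21 to 25. Counts in the genotype comparisons were less stable. Leaving out 1 library gave 2 to 9 members for TG naive, 0 to 5 for the change of the TG effect with stimulation, 6 to 15 for the KO mean of 4 states (6 without KO weak 24 h replicate 4), 10 to 17 for the TG mean (10 without TG very weak 24 h replicate 1), 0 to 1 for KO and 0 to 2 for TG at weak 48 h, 0 to 1 for KO and 0 to 7 for TG at very weak 48 h, 14 to 22 for 48 against 24 h under the weak stimulus and 9 to 14 under the very weak one, and 0 throughout for KO naive, KO and TG at 24 h, the change of the KO effect and both strength comparisons. Without replicate 1 of all 3 naive groups, added after seeing the data, TG naive had 2 calls and the change of the TG effect 0.

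With the replicate block there was 1 call for KO at very weak 48 h and 1 at weak 24 h, 11 for TG at very weak 48 h and 3 at weak 48 h; the block changed no other count by over 1.5 times. With no filter KO weak 48 h gave 0 and the KO mean 7. With only the groups compared there was 1 call for KO at each 24 h state, 0 at weak 48 h, 6 for the KO mean and 4 for TG naive. Adding the block to that fit, an alternative chosen after seeing the data, gave 4 for KO very weak 24 h, 1 for KO weak 24 h, 14, 16, 6 and 15 for TG at very weak 24 h, very weak 48 h, weak 24 h and weak 48 h, and 1 and 3 for the strength comparisons at 24 and 48 h. Sums over the 4 states gave 1 (KO, also with the block) and 9 (TG), and replicates 1 and 2 alone 3 for KO.

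Of 4312 single-gene values under alternatives, 3950 kept their direction and side of the threshold, 351 kept the direction only, and 11 reversed, all in introns scaled by the full table: Pdia4 -0.61, Cct2 -0.80, Cct4 -0.77, Cct8 -0.62, Pdia3 -0.054, Hspa9 -0.30, Tcp1 -0.12, Hspa14 -0.21, Dnajb11 -0.54, Trap1 -0.63 and Pdia6 -0.39.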
